A study of Mus musculus with 4 samples.

Results

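The mitochondrial chromosome contributed 7 of the 128055 peaks in an ATAC-seq table of accessible DNA, the DNA that the Tn5 transposase can reach, cut and tag with sequencing adapters. All peaks on this chromosome were taken, and the set was selected on the same contrast that is described here, so its differences are given as values without a p. The mesenchymal stem cells (MSCs) came from bones (bone marrow in the labels) of wild-type C57BL/6N male mice aged 3 to 5 months and had been sorted as CD45-, TER-119-, CD140a+ and Sca-1+. All cells were kept in culture for a week, one group in hypoxia (2% O2) and the other after a move to normoxia (21% O2), with 2 libraries per group that the study describes as biologically independent experiments. A bulk culture cannot tell a change in every cell from a change in the share of some cells. Recovered library totals ranged from 26680936 to 29965523 reads. The sorted identity was checked on promoter peaks: 6 of 6 mesenchymal marker genes had one, with a summed signal of 1232 to 1280 in hypoxia and 669 to 766 in normoxia. Of the blood markers 2 of 6 had one (summed signal 58.1 to 60.2 in hypoxia and 34.5 to 50.1 in normoxia) while Ptprc, the gene of CD45, had none, and of the endothelial markers 2 of 3 had one (67.6 to 69.4 and 42.0 to 51.1) while Cdh5 had none. The part of other cells in these differences was not tested.

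Mitochondrial DNA is a small circle, present in many copies per cell and packed by TFAM into nucleoids without histones, so Tn5 can cut it over its whole length. It encodes core subunits of the respiratory chain complexes and of ATP synthase together with the ribosomal and transfer RNAs needed to translate them. Transcription and heavy-strand replication start in the control region. Stretches of this genome have also been copied into the nuclear chromosomes, and a read from such a stretch can be placed in either genome.

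The peaks covered 16100 of the 16299 bp of the chromosome (98.8%, mm10) and touched all 37 of its genes, of which 13 encode proteins, 2 ribosomal RNAs and 22 transfer RNAs. Peak 1 (chrM:1-6800) held both ribosomal RNA genes, the complex I subunit genes mt-Nd1 and mt-Nd2 and most of mt-Co1, which encodes the catalytic subunit of cytochrome c oxidase. Peak 2 (chrM:6801-7500) held the last 72 bases of mt-Co1 and 488 bases of mt-Co2, the second oxidase subunit. Peak 3 (chrM:7601-8700) held the end of mt-Co2, the ATP synthase genes mt-Atp8 and mt-Atp6 and the start of mt-Co3, and peak 4 (chrM:8701-9300) lay within mt-Co3, another oxidase subunit. Peak 5 (chrM:9301-10100) held the end of mt-Co3, mt-Nd3 and most of mt-Nd4l, and peak 6 (chrM:10101-10300) spanned the junction of mt-Nd4l and mt-Nd4. Peak 7 (chrM:10301-16200) held the rest of mt-Nd4, then mt-Nd5, mt-Nd6 and mt-Cytb, which encodes cytochrome b of complex III, and 778 of the 877 bases of the control region. The peak caller assigned peaks 2, 4 and 6 to hypoxia alone and the other 4 to both groups, and it left a gap of 100 bp inside mt-Co2 (chrM:7501-7600) and the last 99 bp of the control region outside any peak.

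The boundaries between strong and weak peaks lay inside a stretch that the nuclear genome also holds. A search of the reference (GRCm38) for every 50-base word of the mitochondrial chromosome found 5818 of 16250 words (35.8%) in a nuclear chromosome. The longest copy was at chr1:24611535-24616184, on the minus strand, and matched chrM:6394-11042 with 2 differences in its whole length (99.96% identity). GENCODE M21 lists 7 unprocessed pseudogenes on it, among them Gm28661, Gm10925, Gm28437 and Gm28439. Its edges are shown because they bound the stretch that both genomes hold, with the bases shared by both genomes in capitals. The left edge is chrM:6364-6423 on the plus strand and chr1:24616155-24616214 on the minus strand, and the right edge is chrM:11013-11072 on the plus strand and chr1:24611505-24611564 on the minus strand.
Left edge, mitochondrial: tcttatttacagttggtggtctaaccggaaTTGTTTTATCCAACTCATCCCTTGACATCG
Left edge, nuclear copy: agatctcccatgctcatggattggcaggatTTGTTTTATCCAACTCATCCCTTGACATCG
Right edge, mitochondrial: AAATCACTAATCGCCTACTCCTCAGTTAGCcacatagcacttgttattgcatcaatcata
Right edge, nuclear copy: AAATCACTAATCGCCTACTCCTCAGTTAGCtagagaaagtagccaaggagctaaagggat

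Both differences fell in peak 5 and are shown because within chrM:6394-11042 they are the only letters at which the reference separates a mitochondrial read from its copy. The first was T9461C, with the mitochondrial base first, the position counted from the start of the mitochondrial chromosome and the base of the copy last, read along the mitochondrial plus strand. It lies in mt-Nd3 and is in capitals in chrM:9431-9491 and in chr1:24613087-24613147. The second was an extra A in a run of 8 in the mitochondrial sequence and 9 in the copy, in capitals in chrM:9790-9850 and chr1:24612727-24612788. RefSeq marks position 9461 as one at which the reference strain differs from other inbred strains, and chrM:9821-9830 as a polymorphic region. These letters are those of the reference, and the mitochondrial sequence of the cultured cells was not analysed here.
T9461C, mitochondrial: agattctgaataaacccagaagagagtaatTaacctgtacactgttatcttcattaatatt
T9461C, nuclear copy: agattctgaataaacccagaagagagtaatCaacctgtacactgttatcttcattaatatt
Run of A, mitochondrial: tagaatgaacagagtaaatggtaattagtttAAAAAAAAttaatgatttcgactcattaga
Run of A, nuclear copy: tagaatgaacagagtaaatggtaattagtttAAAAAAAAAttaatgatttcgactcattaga

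The peaks divided into 2 outer peaks that reach beyond this copy and 5 inner peaks that lie within it. Peaks 2, 3, 4 and 6 were identical to the copy at every base, and peak 5 at 799 of its 800 aligned bases. In peaks 2, 3, 4 and 6, 100% of the 50-base words occurred in the nuclear genome, and in peak 5 87.9%. The share was 16.5% in peak 1 and 21.2% in peak 7, of which 407 and 742 bp lay in the copy. The GC content of the 7 peaks ranged from 35.1% to 38.0%. Peak 2 began 407 bp inside the left edge of the copied stretch, and peak 6 ended 742 bp inside its right edge.

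Mitochondrial signal was lower in normoxia. The deposited signal is the number of reads in a peak scaled to a fixed library total and is not divided by peak width. The summed mitochondrial signal was 7.77% and 9.13% of the library in hypoxia against 1.50% and 2.34% in normoxia. The groups did not overlap, and their means, 8.45% ± 0.97 for hypoxia and 1.92% ± 0.60 for normoxia (SD, n = 2 each), were 4.41-fold apart. With 2 libraries against 2, no exact permutation test can reach 0.05. The nuclear peaks also held less of the normoxia libraries, at 31.0% and 35.2% against 49.2% and 53.2% in hypoxia. Relative to the nuclear peak signal, the mitochondrial signal came to 0.158 and 0.172 in the hypoxia libraries against 0.0482 and 0.0664 in the normoxia libraries, 2.87-fold apart in the means. The direction held with either denominator, whereas its size did not. The parts that background reads outside peaks and the removal of duplicate reads play in the library percentages were not tested.

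**Figure D1:**
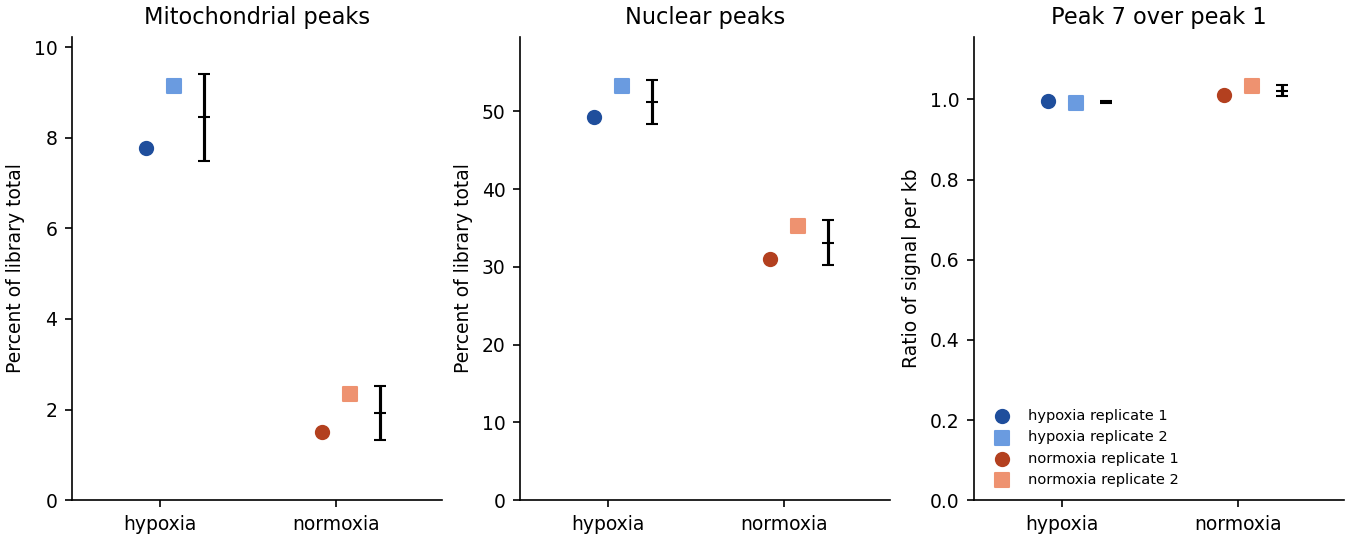
Percent of the library total in mitochondrial peaks and in nuclear peaks, and the ratio of the signal per kb of peak 7 to that of peak 1, for each of the 4 libraries, with bars for mean ± SD of 2 libraries. The mitochondrial percentage was 7.77 and 9.13 in hypoxia against 1.50 and 2.34 in normoxia, while the ratio of the outer peaks lay between 0.992 and 1.03 in all 4.

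The outer peaks carried nearly all of this signal, with 99.957% and 99.949% of it in the hypoxia libraries against 99.961% and 99.98% in the normoxia libraries. Peak 1, which holds the ribosomal RNA genes, mt-Nd1, mt-Nd2 and most of mt-Co1, had 61267 and 72150 signal per kb in hypoxia against 11717 and 18144 in normoxia. Peak 7, from mt-Nd4 to the control region, had 61010 and 71580 in hypoxia against 11856 and 18734 in normoxia. In both peaks each normoxia library lay below each hypoxia library, by 4.47-fold between the means in peak 1 and 4.33-fold in peak 7. In normoxia replicate 2 was 1.55 times replicate 1 in peak 1, and in hypoxia 1.18 times. The limma log2 fold changes after scaling by the relative log expression (RLE) were -1.71 (SE 0.24) in peak 1 and -1.67 (SE 0.26) in peak 7, and neither was called at a false discovery rate (FDR) under 0.01. They were -2.19 and -2.15 on the values as deposited and -0.56 and -0.54 after cyclic loess, so their size depends on the scaling.

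Signal per kb was nearly equal in both outer peaks over their whole widths. Per kb, peak 7 over peak 1 gave 0.996 and 0.992 for hypoxia against 1.01 and 1.03 for normoxia. The normoxia libraries were thus above the hypoxia libraries by a mean of 0.028, a difference close to the gap of 0.021 between both normoxia libraries. The gap between the hypoxia libraries was 0.0037. With only the bases outside the chromosome 1 copy counted as width, the ratio was 1.07 and 1.07 for hypoxia against 1.09 and 1.11 for normoxia. Peak 1 held 53.6% and 53.7% of the mitochondrial signal in hypoxia against 53.2% and 52.7% in normoxia, and peak 7 held 46.3% and 46.2% in hypoxia against 46.7% and 47.2% in normoxia. The light-strand origin of replication (chrM:5160-5191, plus strand) lies in peak 1 and the control region in peak 7, and the table resolves neither from the genes around it. The origin is printed to show how short it is beside the 6800 bp of its peak, with no part of it in capitals.
Light-strand origin: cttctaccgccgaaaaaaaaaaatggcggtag

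Signal per kb was far lower inside the copied stretch. The study called peaks above a minimum mapping quality, and the part this filter plays in the lower signal was not tested. Nuclear peaks had a median of 15.1 per kb in hypoxia and 12.0 in normoxia, and no nuclear peak exceeded 950 per kb as a mean over the libraries, so both outer peaks lay above all 128048 nuclear peaks. Peak 2 was exceeded by 6 nuclear peaks. Peak 6 lay above 96.7% of the nuclear peaks, peak 5 above 90.5%, peak 3 above 69.1% and peak 4, within mt-Co3, above 1.72%. These ranks use the mean over all 4 libraries, which in peaks 2 and 6 comes mostly from hypoxia. In normoxia peak 2 had 17.1 and 24.3 per kb and peak 6 had 3.75 and 1.67, against the nuclear median of 12.0. The inner peaks together had 98.7 and 137 per kb in hypoxia against 17.1 and 13.4 in normoxia. Per kb, the outer peaks were 620 and 524 times the inner peaks in hypoxia against 690 and 1370 times in normoxia.

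**Figure D2:**
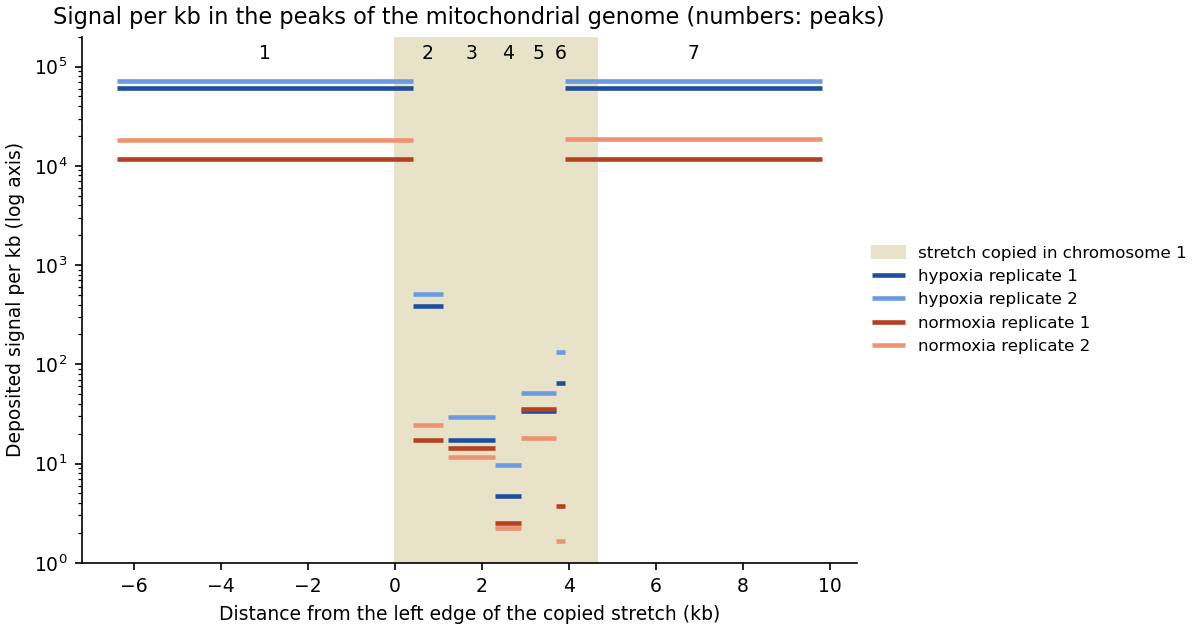
Deposited signal per kb (log axis) of the 7 mitochondrial peaks in each library, placed by distance in kb from the left edge of the stretch copied in chromosome 1 (shaded). The outer peaks lay between 11717 and 72150 per kb and the inner peaks, within the shaded stretch, between 1.67 and 515.

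Among the inner peaks, those next to the outer peaks differed most between the groups. These are peaks 2 and 6, both assigned to hypoxia alone by the peak caller, so their borders were drawn on this same contrast. Peak 2, over the end of mt-Co1 and the first part of mt-Co2, had a signal of 273 and 361 in hypoxia against 12.0 and 17.0 in normoxia, from 772, 1061, 32 and 51 reads. Both normoxia libraries were far below both hypoxia libraries, and the means of 317 ± 61.9 and 14.5 ± 3.55 (SD, n = 2 each) differed 21.8-fold. Its limma log2 fold change of -3.90 (SE 0.15) was the lowest of all 128055 peaks with the pseudocount of 1. With a pseudocount of 0.1, peak 6 was lower (-4.52 against -3.97 in peak 2), as it was by edgeR with RLE scaling (-4.66 against -3.96). The ratio of normoxia to hypoxia from the recovered reads was 0.0461, with an exact 95% interval of 0.0365 to 0.0575, which covers counting error alone, as do all such intervals here.

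Peak 6, over the junction of mt-Nd4l and mt-Nd4, had a signal of 13.1 and 26.9 in hypoxia against 0.75 and 0.33 in normoxia. These values rest on 37 and 79 reads in hypoxia against 2 and 1 in normoxia, so the groups did not overlap but the normoxia level is poorly measured. From the summed reads, the ratio of normoxia to hypoxia was 0.0263 with an exact 95% interval of 0.00535 to 0.0789. The limma log2 fold change was -3.38 (SE 0.40), the second lowest in the table with the pseudocount of 1, and its size depends on the pseudocount. Peak 6 is short enough to print whole, chrM:10101-10300 on the plus strand, and it is shown because its every base is also in the copy. The capitals mark the 7 bases that the reading frames of mt-Nd4l and mt-Nd4, both complex I subunits, share.
Peak 6: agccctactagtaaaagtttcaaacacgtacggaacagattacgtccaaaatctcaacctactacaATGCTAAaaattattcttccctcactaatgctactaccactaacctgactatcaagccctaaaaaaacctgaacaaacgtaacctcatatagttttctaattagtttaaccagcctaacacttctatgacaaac

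Peaks 3, 4 and 5 had smaller differences. Peak 3, with mt-Atp8 and mt-Atp6, had a signal of 19.1 and 32.3 in hypoxia against 15.7 and 12.7 in normoxia, and the means differed 1.81-fold. Peak 4 had 2.83 and 5.78 in hypoxia against 1.50 and 1.33 in normoxia, from 8, 17, 4 and 4 reads. In both peaks the normoxia libraries were below the hypoxia libraries. Peak 5, with mt-Nd3 and most of mt-Nd4l, had 27.2 and 41.1 in hypoxia against 28.1 and 14.4 in normoxia. It was the single peak of the chromosome in which the groups overlapped, since replicate 1 of normoxia lay above replicate 1 of hypoxia. The limma log2 fold changes were -0.32 (SE 0.24) in peak 3, -0.74 (SE 0.46) in peak 4 and -0.25 (SE 0.24) in peak 5, which turned to 0.29 without normoxia replicate 2. The exact 95% intervals of the read ratio, which leave out the spread between libraries, were 0.411 to 0.722 in peak 3, 0.127 to 0.745 in peak 4 and 0.479 to 0.766 in peak 5.

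The ratio of normoxia to hypoxia was therefore not even over the peaks as drawn. The peak caller set their borders on these same reads and assigned peaks 2, 4 and 6 to hypoxia alone. The low ratios of these peaks, and the spread over all 7, are thus not independent of how the peaks were drawn. The ratio was 0.224 in peak 1 and 0.231 in peak 7, close to the 0.227 of the mitochondrial total. It was 0.0458 in peak 2 and 0.0271 in peak 6, which border the outer peaks, and 0.553, 0.329 and 0.621 in peaks 3, 4 and 5 between them. Set against the ratio of the total, peaks 2 and 6 were at 0.202 and 0.119 of it, peaks 3, 4 and 5 at 2.44, 1.45 and 2.74 times it and the outer peaks at 0.986 and 1.02 times. The highest and lowest ratios of the 7 peaks were 22.9-fold apart. The median nuclear peak had a ratio of 0.716. Of the nuclear peaks, 4.30% had a ratio at or below that of peak 7, but most of these had low values, and among the 80356 with a mean signal of at least 10 only 112 did and none reached the ratio of peak 2.

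**Figure D3:**
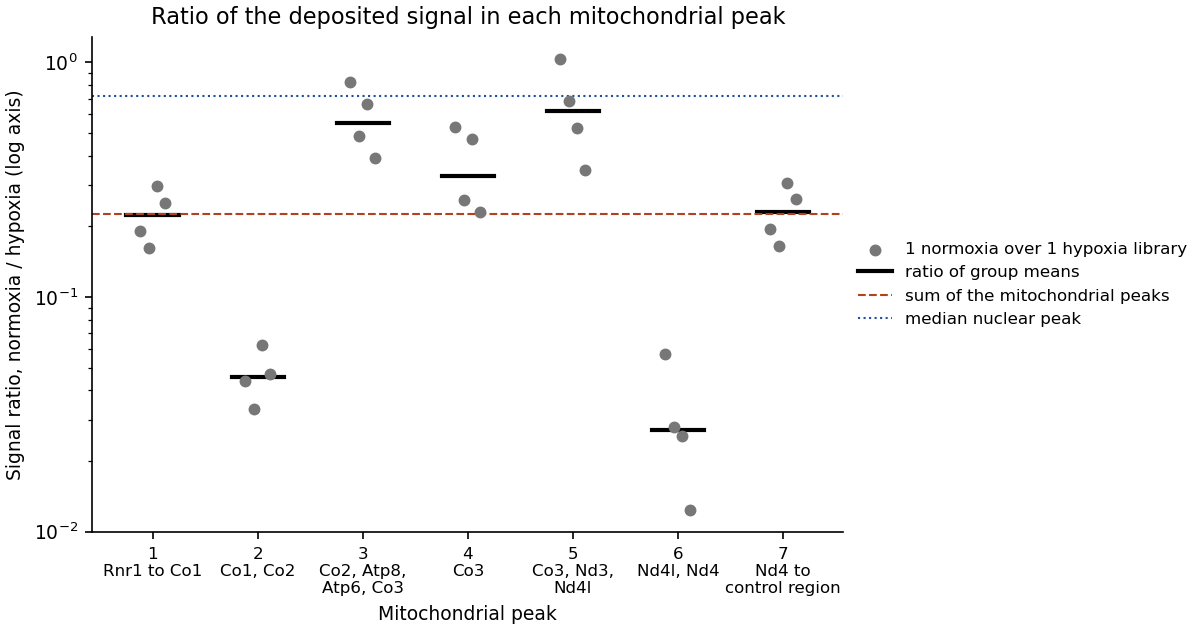
Ratio of normoxia to hypoxia signal (log axis) in each mitochondrial peak, with grey points for each of the 4 pairs of a normoxia and a hypoxia library, black bars for the ratio of the group means, and lines for the mitochondrial total (0.227) and the median nuclear peak (0.716). Peaks 2 and 6 lie at 0.0458 and 0.0271, below the outer peaks at 0.224 and 0.231, and peaks 3 to 5 lie above them.

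Shares set each peak against the mitochondrial total, which the outer peaks nearly make up. The share of an inner peak therefore rises where the outer peaks fall more than it does. Peak 2 held 0.0352% and 0.0395% of it in hypoxia against 0.00801% and 0.00727% in normoxia, with no overlap. Peak 6 held 0.00169% and 0.00294% in hypoxia against 0.000501% and 0.000143% in normoxia, also with no overlap. Peaks 3 and 5 had higher shares in normoxia, although their mean signal was lower there than in hypoxia. Peak 3 held 0.00246% and 0.00354% in hypoxia against 0.0105% and 0.00542% in normoxia, and peak 5 held 0.00351% and 0.00450% in hypoxia against 0.0188% and 0.00613% in normoxia, again without overlap in either peak. Peak 4 held 0.000364% and 0.000633% in hypoxia against 0.00100% and 0.000571% in normoxia, where the groups overlapped. Per kb, peak 2 was 19.8 and 16.3 times peaks 3 to 5 pooled (their summed signal over their summed width) in hypoxia against 0.945 and 2.14 times in normoxia, and peak 6 was 3.33 and 4.24 times in hypoxia against 0.207 and 0.147 times in normoxia.

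Of the 7 peaks, 2 (peaks 2 and 6) were called lower in normoxia and 0 higher, where 4.57% of all peaks were called lower and 1.77% higher by the same limma fit. In 6 of the 7, all but peak 5, the deposited values of the groups did not overlap and normoxia was lower, as in 59.5% of all peaks. Since the peaks were selected on this contrast, nothing is read from these counts. Without hypoxia replicate 1 or hypoxia replicate 2 the fit called 0 of the 7 and 0 peaks in the whole table. All 7 peaks had reads in every library and entered the fit, and 6 had a mean signal of at least 5, all but peak 4. Peak 6 reached this mean through hypoxia alone, with 13.1 and 26.9 against 0.75 and 0.33 in normoxia. The median limma log2 fold change was -1.67 over the 7 peaks and -0.0040 over all peaks.

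The nuclear side of the copies was also in the table. On the chromosome 1 copy there were 3 peaks. The strongest, chr1:24612401-24613400, matches chrM:9178-10176 and contains both differing positions, and it had a signal of 393 and 716 in hypoxia against 237 and 235 in normoxia. Both normoxia libraries were lower and nearly equal, and hypoxia replicate 2 was the highest. Its log2 fold change was -0.69 (SE 0.15), with an FDR of 0.00495 by limma with Benjamini-Hochberg adjustment. It held 14.4 and 17.4 times the signal of mitochondrial peak 5, which covers the same differences, in hypoxia against 8.44 and 16.4 times in normoxia, with overlap between the groups. Whether the mitochondrial DNA of these C57BL/6N cells has the reference letters at the differing positions was not analysed, so this comparison does not tell the genomes apart. The signal of the chr1 peak was also set against the outer mitochondrial peaks. As a percentage of the outer mitochondrial signal it was 0.0506 and 0.0785 in hypoxia against 0.159 and 0.10 in normoxia. The other peaks on this copy, at its edges, had 22.6 and 49.6 in hypoxia against 16.9 and 14.0 in normoxia (chr1:24611301-24612100) and 8.14 and 16.7 against 4.12 and 6.01 (chr1:24615901-24616400), with FDRs of 0.0803 and 0.177 in the same limma fit.

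Another copy, chr2:22587288-22590534 on the minus strand, in Myo3a and carrying the pseudogenes Gm13341, Gm13340 and Gm13339, matched chrM:4441-7699 at 97.4% identity with 86 differing columns, of which 57 lay in peak 1 and 22 in peak 2. Its peak, chr2:22587001-22590800, had a signal of 296 and 507 in hypoxia against 156 and 145 in normoxia, and limma gave a log2 fold change of -0.88 (SE 0.13) at an FDR of 5.2e-05. The remaining copy, chr12:97061428-97061792 on the plus strand, matched chrM:15675-16039 in the control region with the single difference C15917T. Its peak, chr12:97061201-97062000, had 12.4 and 24.8 in hypoxia against 10.1 and 8.68 in normoxia, with a limma FDR of 0.36. In all 5 peaks on the copies normoxia lay below hypoxia, with ratios of group means between 0.374 and 0.505, and 2 of the 5 were called lower, where 59.5% of all peaks had both normoxia values below both hypoxia values and 4.57% were called lower. These ratios were above those of the outer mitochondrial peaks and below that of the median nuclear peak. That median was taken over all nuclear peaks, without matching for signal strength. Hypoxia replicate 2 was above replicate 1 in all 5. Which genome the reads of these peaks came from was not tested.

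**Figure D4:**
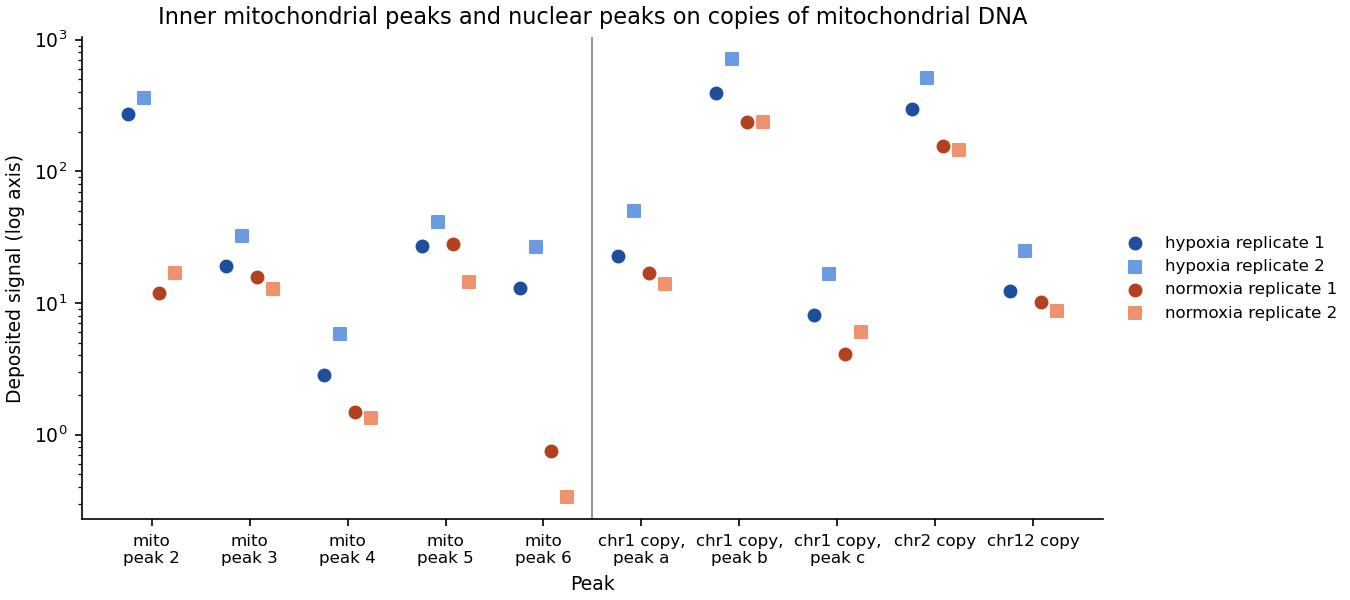
Deposited signal (log axis) in each library for the 5 inner mitochondrial peaks and, right of the line, for the 5 nuclear peaks on copies of mitochondrial DNA, where peaks a, b and c lie on the chromosome 1 copy in order of position. Peak b, at 235 to 716, exceeded mitochondrial peak 5, at 14.4 to 41.1, in all 4 libraries.

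A list of 42 nuclear genes that keep, copy, transcribe or remove mitochondrial DNA was set beside these values. Of these, 41 had a promoter peak (all but Mterf1a), with 47 peaks in total. In normoxia 14 of the 47 fell and 0 rose by limma at an FDR under 0.01, with 1 higher at an unadjusted p under 0.05, and 0 higher by edgeR with either scaling. The median log2 fold change was -0.33, where all 17661 promoter peaks had a median of -0.27 with 16.7% called lower and 0.442% higher. The replication genes had 4 of 12 peaks called lower, among them those of Polg2, the accessory subunit of the mitochondrial DNA polymerase, and Top1mt, the mitochondrial topoisomerase. The Polg2 peak (chr11:106774201-106790400) is far wider than the 1 kb promoter window, so its signal is not that of the promoter alone. The transcription genes had 3 of 7, the nucleoid and copy number genes 2 of 5, the nucleotide supply genes 1 of 6, the biogenesis regulators 1 of 7 and the mitophagy genes 3 of 10.

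The called peaks with the lowest p included those at Mterf3, Gabpa, Lonp1 and Tfb2m. Mterf3, a negative regulator of mitochondrial transcription, had a signal of 282 and 267 in hypoxia against 111 and 130 in normoxia, a change of -0.71 on the log2 scale (SE 0.11, limma FDR 9.19e-05). Gabpa, a nuclear activator of genes for mitochondrial proteins, had 226 and 256 against 106 and 123 (-0.59, SE 0.11, limma FDR 0.000567). Lonp1, a protease of the mitochondrial matrix that degrades TFAM, had 145 and 135 against 57.3 and 72.8 (-0.63, SE 0.13, limma FDR 0.00172). In each of them the normoxia libraries lay below the hypoxia libraries. Tfb2m, a transcription factor of the mitochondrial RNA polymerase, changed by -0.57 (SE 0.12, limma FDR 0.00200). The promoters of Polg, the catalytic subunit of the polymerase, and Tfam did not pass, with limma FDRs of 0.0141 and 0.0167. These calls depend on the scaling, with 33 of 47 called lower on the values as deposited, 2 with equal nuclear totals and 0 after cyclic loess, and 0 without hypoxia replicate 1 or hypoxia replicate 2.

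**Figure D5:**
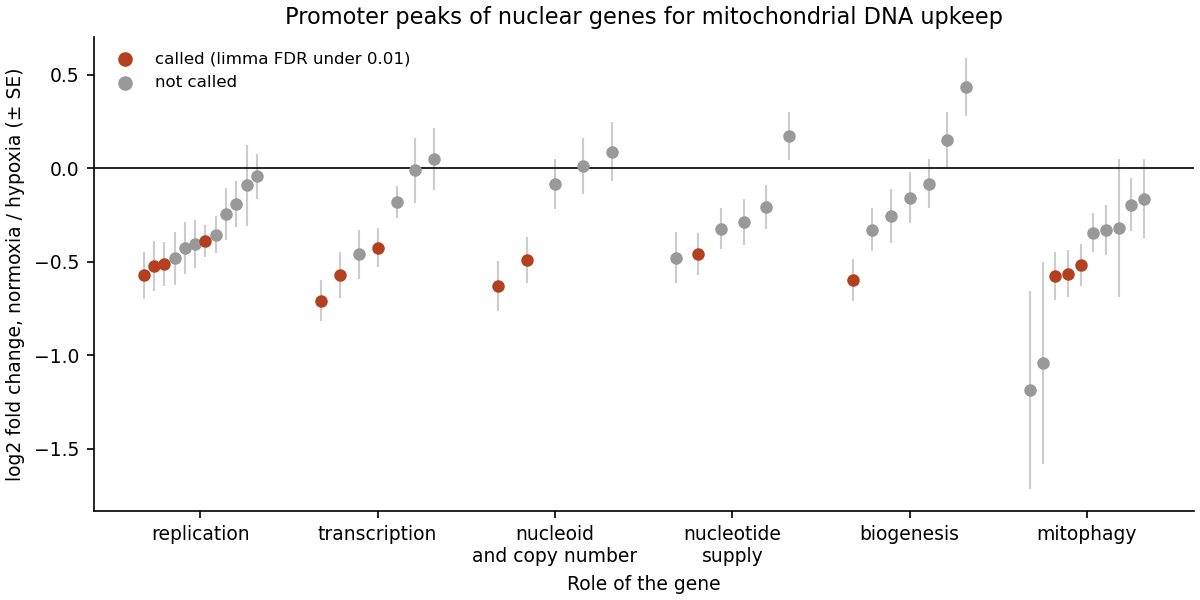
Limma log2 fold change (normoxia over hypoxia, ± SE) of the 47 promoter peaks of nuclear genes for mitochondrial DNA upkeep, grouped by role, with red points for the 14 called lower and grey points for the others. The called peaks lay between -0.71 and -0.39.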

How the data were processed

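ATAC-seq was measured in 4 libraries of mouse bone MSCs, grouped by the oxygen label. The authors aligned reads to mm10 with bowtie2, removed duplicates with Picard and called peaks jointly in both groups with chromstaR (differential mode), above a minimum mapping quality. The deposited signal per peak, called RPKM by the authors, is scaled by the library total and not by width. Every value (100%) was a whole number of steps of 1 read (tolerance 0.01), which returned the reads. The library totals and the percentages of the library rest on a scaling constant of 10000000, which was assumed and which the steps do not test. Whether a read is counted once is unknown, so counting intervals are a lower limit of the error.

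From these values, signal per kb, shares and ratios of group means were computed. Fold changes (normoxia over hypoxia) came from limma 3.58.1 in R 4.3.3 (moderated by eBayes using trend and robust), fitted to RLE-scaled log2(value + 1), a scale that understates low peaks. Tests were two-sided, p-values were Benjamini-Hochberg adjusted across the 128055 peaks and calls needed an FDR under 0.01. The functions were tested on simulated data. Nuclear copies were found by exact words of 50 bases in GRCm38, joined over gaps of up to 500 bp, and those with at least 200 shared words were named. Genes came from GENCODE M21 and features of the mitochondrial chromosome from RefSeq. Promoter peaks are those up to 1 kb from a protein-coding start site. All mitochondrial peaks are named, with the 5 upkeep peaks of lowest p among those called, in each direction (1 of them is not reported here), Polg, Polg2, Tfam and Top1mt, picked after their values were seen, and the 3 nuclear peaks (mean signal of at least 10) most like the mitochondrial total. The peaks and lists were chosen with earlier results of these data known. Alternatives were other scalings, pseudocounts and filters, eBayes without trend and robust, an FDR under 0.05, a replicate block, leaving out each library, and edgeR 4.0.16 on the recovered reads.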

Additional observations from a re-analysis of the deposited data

How the results depend on the processing

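Of 240 values recomputed under alternatives, 196 stayed within the spread between replicates or within 1.5 times the count, 43 moved and 1 reversed. The 7 peak fold changes stayed below 0 in 103 of 104 recomputations, and peak 5 ranged from -0.77 to 0.29 with 1 library left out, the last without normoxia replicate 2. The count of mitochondrial peaks called lower, 2 in the report, was 4 on the values as deposited, 4 with edgeR under RLE or TMM scaling, where 7296 and 6564 peaks of the whole table were called lower, and 0 by eBayes without trend and robust, where the whole table had 0 calls, and ranged from 0 to 2 when 1 library was left out. It was 0 without hypoxia replicate 1 or 2, each of which also left 0 calls in the whole table. The count of upkeep promoter peaks called lower, 14 in the report, was 33 as deposited, 2 with equal nuclear totals, 0 after cyclic loess, 0 without trend and robust and 23 at an FDR under 0.05, and from 0 to 20 with 1 library left out (0 without hypoxia replicate 1 or 2, 7 without normoxia replicate 1). After cyclic loess 1 was called higher. The median log2 fold change of all peaks was -0.0040 after RLE, -0.44 as deposited and 0.13 with equal nuclear totals, and called peaks divided into 5856 lower and 2262 higher after RLE, 30729 and 501 as deposited, 2503 and 4127 with equal nuclear totals and 1681 and 1819 after cyclic loess. Against these medians the outer peaks had -2.19 and -2.15 as deposited and -0.56 and -0.54 after cyclic loess.

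The replicate numbers did not pair the samples (correlation of deviations 0.011), and with a replicate block 4 mitochondrial and 17 upkeep peaks were called lower by limma and 4 mitochondrial peaks by edgeR, the last chosen after seeing the data. Over the whole table these blocked fits called 8468 and 7976 peaks lower, against 5856 by limma without the block. The normoxia minus hypoxia difference in the mitochondrial percentage, -6.53 points of the library, was -8.73 points over all peak signal, -10.7 relative to nuclear peak signal, and -7.22 to -5.85 with 1 library left out. The lowest log2 ratio, -5.20, was -4.36 with a pseudocount of 1 and -5.90 to -4.60 with 1 library left out, and the median, -2.12, ranged from -2.48 (without normoxia replicate 2) to -1.82. Depth limits peaks 4 and 6, with 8 and 3 reads over the normoxia libraries.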

Other observations

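The nuclear peaks whose 4 library values lay nearest to those of the mitochondrial total (Euclidean distance of centred log2(value + 1), among the 80356 nuclear peaks with a mean signal of at least 10) were 1 at the start of Tubb2b, a neuronal beta-tubulin gene, 1 on chromosome 18 with Slc14a2 as the nearest start site, 30007 bp away, and 1 on chromosome 13 with Isl1 as the nearest, 107422 bp away. Their distances were 0.167, 0.174 and 0.196, and 60 nuclear peaks lay within 0.5, so these 3 are not set apart from others. The Tubb2b peak (chr13:34129801-34130600) had a signal of 41.0 and 41.8 in hypoxia and 6.37 and 10.0 in normoxia. All 3 peaks had been assigned to hypoxia alone by the peak caller, whereas the outer mitochondrial peaks were assigned to both groups. Since the 3 were picked for values that fall like the mitochondrial total, nothing is read from their assignment.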
